A study of Mus musculus with 21 samples.

Results

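The 39 genes described here encode proteins that copy DNA or act in S phase, the stretch of the cell cycle in which the genome is copied. They were listed by gene symbol for their function, by a rule that uses no measured value but was written with earlier results of these data known, and each was read through its probe set with the highest mean. They are 39 of 18194 genes with a probe set of a single gene symbol and 39 of the 11854 genes tested. All 39 passed the filter on low signal, which asked for a signal above the median of the array on at least 2 of 20 arrays. Of them, 30 were above the array median on all 20 arrays, and the lowest were Orc1 on 5, Tyms on 9 and E2f1 on 12.

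The cells came from mouse small intestine, carried the red fluorescent protein TdTomato, and are labelled as positive for Mist1, the transcription factor that Bhlha15 encodes and that secretory cells carry. They were sorted into a CD24lo and a CD24hi fraction by the surface protein CD24. Each fraction was measured in 5 conditions with 2 arrays each, which makes 20 sorted arrays in 10 groups. The conditions were untreated, Lgr5-ablated (the titles carry the letters DT), irradiated with 10 Gy, treated with doxorubicin, a drug that damages DNA, and NICD, a name in common use for the intracellular part of a Notch receptor. The labels do not spell out DT or NICD, and strain, age, time after treatment, the dose of doxorubicin and the driver of TdTomato or NICD are not given in the sources used here. One further array held whole intestine and entered no test. The labels leave unsaid whether both arrays of any group stem from separate animals, so the p-values here measure only the spread between samples, which may be technical.

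Levels are given as log2(signal + 16), which understates the change of dim genes, and each probe set has its own scale, so levels are not compared between genes. The median signal ran from 101 to 158 over the sorted arrays, and across genes, which are no independent replicates, the correlation within groups was 0.942 to 0.985. Bhlha15 and Cd24a, which the fractions were sorted for or by, were higher in CD24hi cells by 2.24 ± 0.12 and 1.01 ± 0.08 on average over the conditions (adjusted p = 3.05e-10 and 3.08e-08). Lgr5 read 11.48 and 10.95 in untreated and 10.17 and 9.65 in Lgr5-ablated CD24hi cells, a difference of -1.30 ± 0.56 (adjusted p = 0.455), and it differed by -1.42 ± 0.56 in CD24lo cells (adjusted p = 0.585). One array, CD24hi NICD replicate 2, differed from the rest in control probe sets. Its cre spike-in signal was 75343, against 22819 to 48833 on the other 19 arrays, and its 3′ to 5′ actin ratio was 1.03, against 1.3 to 1.58.

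DNA replication is prepared before S phase, when the origin recognition complex, Cdc6 and Cdt1 load the ring-shaped Mcm helicase onto DNA. Cdc45 and the Gins complex then switch the helicase on, DNA polymerase alpha with primase starts new strands, and polymerases delta and epsilon extend them, held to DNA by the sliding clamp Pcna that the Rfc complex loads. Many of these genes are switched on late in the preceding phase by transcription factors of the E2f family, and in the intestine they are abundant in the dividing cells of the crypt. In sorted bulk samples, fewer dividing cells and less of such an RNA per cell cannot be told apart.

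E2f proteins bind DNA at short motifs, and promoters of the list are shown here because its genes moved together. The motifs TTTCCCGC, TTTCGCGC, TTTGCCGC and TTTGGCGC were searched on both strands, with overlaps counted, in windows from 250 bases before to 50 bases after each start site (RefSeq, GRCm38.p6). Windows were found for 31 of the 39 genes. A motif lay in 13 of 36 windows of the list, or 36.1%, against 744 of 32841 windows of all genes in the table, or 2.27%. The CCAAT box, read as CCAAT on either strand, lay in 55.6% of the list's windows and in 37.4% of all windows. A match describes letters and is not a shown binding site. Below are stretches upstream of the start sites of 4 members, with the E2F-type motifs in capitals.
Mcm5: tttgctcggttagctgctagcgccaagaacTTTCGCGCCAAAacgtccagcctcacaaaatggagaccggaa
Mcm6: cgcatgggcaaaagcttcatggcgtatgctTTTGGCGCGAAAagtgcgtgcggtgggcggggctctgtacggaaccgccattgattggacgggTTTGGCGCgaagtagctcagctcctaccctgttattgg
Rfc3: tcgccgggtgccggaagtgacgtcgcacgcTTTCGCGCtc
Gins3: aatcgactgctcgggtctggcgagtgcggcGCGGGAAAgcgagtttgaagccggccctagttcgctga
The Mcm5 stretch is chr8:75109326-75109397 on the plus strand, positions -183 to -112 from the start site, and holds 2 overlapping motifs on opposite strands. The Mcm6 stretch is chr1:128359715-128359845 on the minus strand, positions -140 to -10, and holds 3 motifs, of which the first 2 overlap. The Rfc3 stretch is chr5:151651209-151651248 on the minus strand, with 1 motif. The Gins3 stretch is chr8:95633488-95633555 on the plus strand, with 1 motif read on the opposite strand.

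Across the 10 groups, the list was lowest in 3, both irradiated groups and CD24lo cells after doxorubicin. The mean over the 39 genes was 9.59 and 9.96 on the untreated CD24lo arrays and 10.04 and 10.01 on the untreated CD24hi arrays. It was 9.06 and 9.01 in irradiated CD24lo cells, 8.57 and 9.06 in irradiated CD24hi cells, and 8.76 and 8.54 in CD24lo cells after doxorubicin. In CD24hi cells after doxorubicin it was 9.81 and 9.88, close below the untreated arrays. The 6 arrays of the first 3 groups lay below all other sorted arrays, of which the lowest was Lgr5-ablated CD24lo replicate 2 at 9.51.

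**Figure D1:**
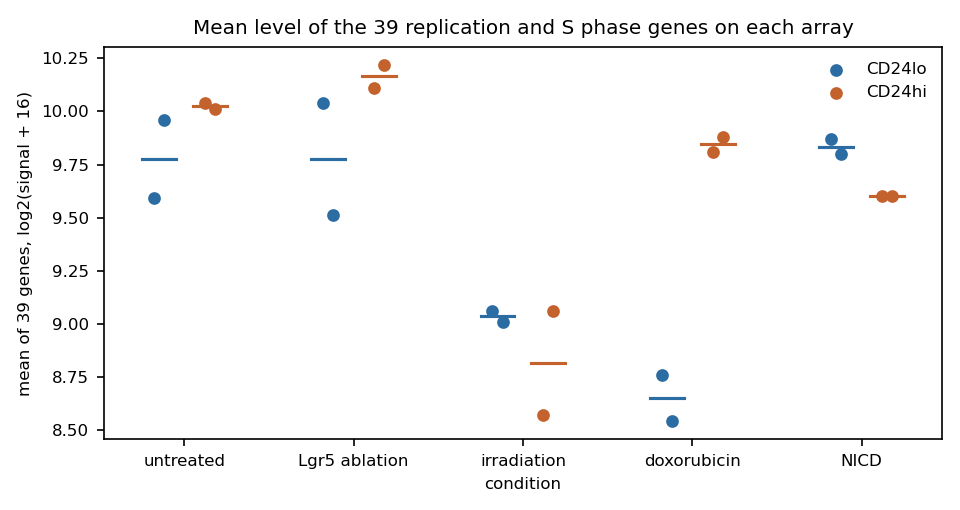
Mean level of the 39 replication and S phase genes on each of the 20 sorted arrays (vertical axis, log2(signal + 16)) by condition, in CD24lo (blue) and CD24hi (orange) cells. Points are arrays and bars the mean of the 2 arrays of a group. The irradiated arrays of both fractions and the CD24lo doxorubicin arrays sit between 8.54 and 9.06, and the CD24hi doxorubicin arrays at 9.81 and 9.88.

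In CD24hi cells after irradiation, most of the list fell. Of the 39 genes 26 were lower and 0 higher, where 3.33% of all genes tested were lower, and the median difference from untreated was -1.18 against 0.00 over all genes. All 39 differences were negative, from -2.20 for Pole to -0.33 for Gins3. The irradiated arrays lay below both untreated arrays for 37 genes (24.8% of all genes).

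Helicase loading genes fell in 10 of 11 cases. Mcm6, a subunit of the Mcm ring, read 11.28 and 11.29 on the untreated CD24hi arrays and 9.01 and 9.82 on the irradiated ones, a difference of -1.87 ± 0.25 (adjusted p = 0.000273), or 3.66-fold lower. Mcm5, another subunit, read 11.29 and 11.52 untreated and 9.07 and 10.08 irradiated (-1.83 ± 0.33, adjusted p = 0.00269). Mcm2 read 10.70 and 10.44 against 8.91 and 9.40 (-1.42 ± 0.27, adjusted p = 0.00414). In all 3 the groups did not overlap, and irradiated replicate 1 was the lower. Cdc6, which helps to load the ring, read 8.71 and 8.75 untreated and 7.22 and 7.63 irradiated (-1.31 ± 0.36, adjusted p = 0.0496). Gmnn encodes geminin, which holds Cdt1 back so that origins are not loaded again, and it read 10.12 and 10.11 against 8.60 and 9.10 (-1.27 ± 0.25, adjusted p = 0.00558). Orc1, the largest subunit of the origin recognition complex, was the member of this role that did not pass (-0.57 ± 0.34, adjusted p = 0.453).

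Of the 5 genes of helicase activation 3 fell, Mcm10, Gins1 and Gins2. Mcm10, a factor that acts as the helicase is switched on, read 10.39 and 10.56 untreated and 8.31 and 9.35 irradiated (-1.65 ± 0.32, adjusted p = 0.00439). Among primase and polymerase genes 5 of 6 fell. Pole, the catalytic subunit of polymerase epsilon, had the largest difference of the list. It read 9.20 and 9.60 untreated and 6.95 and 7.45 irradiated, a difference of -2.20 ± 0.32 (adjusted p = 0.000548), or 4.60-fold lower. Pola1, the catalytic subunit of polymerase alpha, read 9.31 and 8.86 against 6.94 and 7.52 (-1.86 ± 0.37, adjusted p = 0.00541). Prim1, the small primase subunit, read 10.76 and 10.41 against 8.50 and 9.07 (-1.80 ± 0.29, adjusted p = 0.00122). These 4 genes too were lower on both irradiated arrays than on either untreated array.

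The sliding clamp gene did not pass. Pcna read 12.70 and 12.66 untreated and 11.83 and 12.32 irradiated, a difference of -0.61 ± 0.21 (adjusted p = 0.143). Of the 4 clamp loader genes 3 fell, Rfc3, Rfc4 and Rfc5. In nucleotide supply 3 of 5 genes fell. Tk1, thymidine kinase, read 10.59 and 10.74 untreated and 8.82 and 9.24 irradiated (-1.64 ± 0.25, adjusted p = 0.000977). Rrm2, the small subunit of ribonucleotide reductase, read 10.66 and 10.97 against 9.63 and 10.25 (-0.88 ± 0.24, adjusted p = 0.0467), and the large subunit gene Rrm1 fell by 1.59 ± 0.27 on the log2 scale (adjusted p = 0.00181). Of the genes that join Okazaki fragments, Lig1, DNA ligase I, fell (-1.30 ± 0.24, adjusted p = 0.00338), and Fen1, a flap nuclease, did not pass (-0.76 ± 0.25, adjusted p = 0.103). Uhrf1, which helps to keep DNA methylation on new strands, read 10.81 and 10.97 untreated and 8.43 and 9.22 irradiated (-2.07 ± 0.50, adjusted p = 0.0218). None of the 3 regulators of entry into S phase passed. The cyclin E gene Ccne1 read 8.99 and 8.67 against 6.86 and 7.94 (-1.43 ± 0.41, adjusted p = 0.0609), and Ccne2 and the transcription factor gene E2f1 differed by -0.47 and -0.48.

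The count in irradiated CD24hi cells rested on both irradiated arrays to different degrees. Without irradiated replicate 1 it was 7, without replicate 2 it was 28, and without untreated replicate 1 or 2 it was 13 or 16, with medians between -1.02 and -1.46. The calls of Gins1, Mcm6, Pold1, Pole, Prim1, Rrm1 and Tk1 held under each of the 11 alternatives run.

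Markers of other cell types moved in the irradiated CD24hi arrays too. Of 7 goblet cell genes 2 rose, Clca1 (1.61 ± 0.18, adjusted p = 5.25e-05) and Zg16 (1.10 ± 0.21, adjusted p = 0.00448), and the summed signal of the list was 97400 to 110000 against 64500 to 83400 untreated. Of 4 B and plasma cell genes tested 1 fell, the B cell gene Ms4a1 (-1.58 ± 0.44, adjusted p = 0.0499). It read 7.15 and 6.58 untreated and 5.94 and 4.64 irradiated, below the array median on each of these arrays. Only 2 sorted arrays had Ms4a1 above the array median, so its call rests on a dim probe set. The summed signal of the B and plasma cell genes was 483 to 819 against 2690 to 3190 untreated. Most of it came from Jchain, the joining chain of secreted antibodies. Jchain read 11.22 and 11.54 untreated and 9.57 and 8.73 irradiated and did not pass (-2.23 ± 0.66, adjusted p = 0.07). None of the 6 Paneth, 8 enterocyte, 7 enteroendocrine, 5 tuft, 7 T cell or 3 myeloid genes passed. The part of these markers in the values of the replication genes was not tested.

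**Figure D2:**
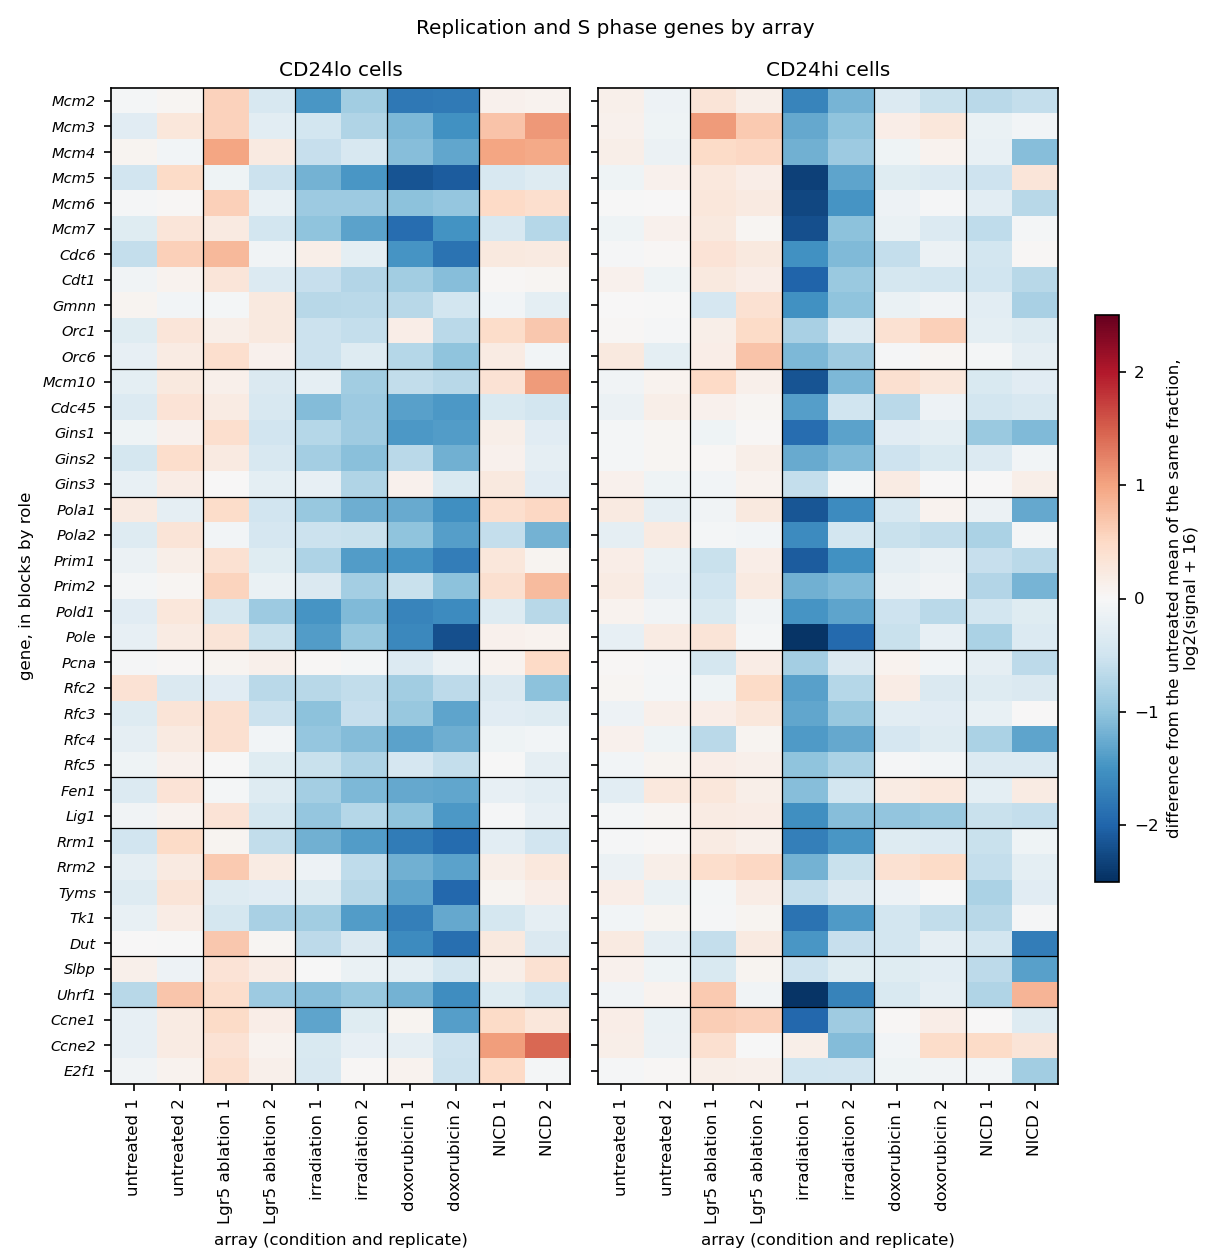
Level of each of the 39 genes (rows, in blocks by role) on each of the 20 sorted arrays (columns, condition and replicate) as the difference in log2(signal + 16) from the mean of the 2 untreated arrays of the same fraction. Blue is lower and red higher, and colours stop at 2.5. The irradiated columns of both fractions and the CD24lo doxorubicin columns are mostly blue, and the CD24hi doxorubicin columns are near white.

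In CD24lo cells after irradiation, 11 of the 39 genes fell and 0 rose, where 2.45% of all genes tested were lower. The median difference was -0.68, all 39 differences were negative, and they ran from -1.32 for Mcm5 to -0.01 for Pcna. Arrays did not overlap for 33 genes (26.9% of all genes). The 11 were Mcm2, Mcm5, Mcm6, Prim1, Pold1, Pole, Rfc4, Rfc5, Fen1, Rrm1 and Tk1.

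Mcm5 read 10.88 and 11.84 on the untreated CD24lo arrays and 10.17 and 9.91 on the irradiated ones (-1.32 ± 0.33, adjusted p = 0.0308). Mcm2 read 10.10 and 10.18 against 8.68 and 9.28 (-1.16 ± 0.27, adjusted p = 0.0219), and Mcm6 read 10.76 and 10.83 against 9.89 and 9.88 (-0.92 ± 0.25, adjusted p = 0.0491). The untreated arrays of Mcm5 lay further apart than those of Mcm2 and Mcm6. Pold1, the catalytic subunit of polymerase delta, read 8.97 and 9.52 untreated and 7.77 and 8.14 irradiated (-1.29 ± 0.24, adjusted p = 0.00633). Pole read 8.77 and 9.18 against 7.58 and 8.02 (-1.18 ± 0.32, adjusted p = 0.0467), and Prim1 10.02 and 10.31 against 9.40 and 8.76 (-1.09 ± 0.29, adjusted p = 0.0448). The irradiated arrays of these polymerase and primase genes lay below both untreated arrays.

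Rrm1 read 10.41 and 11.35 untreated and 9.68 and 9.48 irradiated (-1.30 ± 0.27, adjusted p = 0.0111). Tk1 read 10.68 and 11.06 against 10.01 and 9.48 (-1.12 ± 0.25, adjusted p = 0.0195). Rfc4, a clamp loader subunit, read 9.76 and 10.21 against 9.02 and 8.90 (-1.03 ± 0.25, adjusted p = 0.0297). These 3 also did not overlap, whereas Cdc6, Rrm2 and Pcna did. Cdc6 read 7.52 and 8.72 untreated and 8.27 and 7.88 irradiated (-0.04 ± 0.36), Rrm2 10.60 and 11.04 against 10.70 and 10.18 (-0.38 ± 0.24), and Pcna 12.37 and 12.44 against 12.44 and 12.35 (-0.01 ± 0.21). Gmnn (-0.68 ± 0.25) and Ccne1 (-0.82 ± 0.41) did not pass either. Adjusted p for these 5 was between 0.136 and 0.984.

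The count of 11 was 7 and 0 without untreated replicate 1 and 2, and 1 and 2 without irradiated replicate 1 and 2, with medians from -0.88 to -0.56, so no single gene of the 11 kept its call under all alternatives. Of these 11 genes all but Fen1, or 10 (90.9%), were among the 26 that fell in irradiated CD24hi cells. The 10 made up 38.5% of those 26. With 26 of the 39 genes lower there, most of any 11 members drawn at random would be among them, and the overlap was not tested. The CD24lo and CD24hi comparisons share no arrays, but both fractions may have come from the same animals. The difference between the effects in both fractions passed for 0 of 39 genes by limma, where 0.00844% of all genes passed. It had an unadjusted p below 0.05 for 6 members, a looser rule for which no share of all genes is given. Its median was -0.50, and the most negative value was that of Cdc6 at -1.26 ± 0.51 (adjusted p = 1.0).

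In CD24lo cells after doxorubicin, most of the list fell. Of the 39 genes 26 were lower and 0 higher, where 9.27% of all genes tested were lower, and the median was -1.22 against -0.06 over all genes. All 39 differences were negative, from -2.11 for Mcm5 to -0.14 for Gins3, and arrays did not overlap for 35 genes (35.1% of all genes). By role, 9 of 11 helicase loading genes fell, 3 of 5 of helicase activation, 5 of 6 of primase and polymerases, 2 of 5 of the clamp and its loader, both genes of Okazaki fragment joining and all 5 of nucleotide supply.

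Mcm5 read 9.21 and 9.28 after doxorubicin (-2.11 ± 0.33, adjusted p = 0.00121), a 4.33-fold difference, without overlap. Mcm2 read 8.36 and 8.38 (-1.77 ± 0.27, adjusted p = 0.00114). Mcm7 read 11.29 and 11.88 untreated and 9.68 and 10.10 after doxorubicin (-1.70 ± 0.33, adjusted p = 0.00412). Mcm6 read 9.76 and 9.82 (-1.0 ± 0.25, adjusted p = 0.0147), and all 4 ring genes were below both untreated arrays. Cdc6 read 6.65 and 6.27 (-1.66 ± 0.36, adjusted p = 0.00767), below both untreated arrays. Pole read 7.37 and 6.77 (-1.90 ± 0.32, adjusted p = 0.00192), or 3.74-fold lower.

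Every gene of nucleotide supply fell. Rrm1 read 9.14 and 8.95 after doxorubicin (-1.84 ± 0.27, adjusted p = 0.000875), and Rrm2 9.61 and 9.49 (-1.27 ± 0.24, adjusted p = 0.00363). Dut, which clears dUTP so that uracil stays out of DNA, read 9.55 and 9.53 untreated and 7.96 and 7.66 treated (-1.73 ± 0.39, adjusted p = 0.00888). Tyms, thymidylate synthase, read 6.98 and 7.64 against 6.0 and 5.34 (-1.64 ± 0.33, adjusted p = 0.00537), on a dim probe set. Tk1 read 9.16 and 9.59 (-1.49 ± 0.25, adjusted p = 0.00213). All 5 were apart from their untreated arrays.

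Pcna, Gmnn and Ccne1 did not pass after doxorubicin in CD24lo cells. Pcna read 12.06 and 12.26 (-0.25 ± 0.21, adjusted p = 0.457). Gmnn read 10.19 and 10.04 untreated and 9.42 and 9.66 treated (-0.58 ± 0.25, adjusted p = 0.127), and Ccne1 8.72 and 9.12 against 8.98 and 7.55 (-0.65 ± 0.41, adjusted p = 0.295), with overlap for Ccne1. The count of 26 was 10 without untreated replicate 2, 17 and 12 without doxorubicin replicate 1 and 2, and 26 without untreated replicate 1, with medians from -1.45 to -1.04. Gins1, Mcm2, Mcm5, Pold1, Pole, Prim1, Rrm1 and Tk1 kept their calls under each of the 11 alternatives.

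Other transcripts moved in the same CD24lo arrays. Of 7 T cell genes tested 5 were higher after doxorubicin, led by Gzma (3.48 ± 0.68, adjusted p = 0.00431) and Gzmb (3.44 ± 0.77, adjusted p = 0.00883), granule proteases of lymphocytes. Cd3e, part of the T cell receptor complex, was higher by 3.05 ± 0.62 (adjusted p = 0.00546), and Cd3d did not pass the filter. Cd3e and Cd3g were above the array median on only 2 sorted arrays, those of CD24lo cells after doxorubicin. Both genes thus entered the test only through the group in which they were high. The filter therefore favoured a call of either, and the count of 5 leans on it. The summed signal of the T cell genes was 3380 to 3540 against 337 to 952 in untreated CD24lo cells. That of 8 enterocyte genes was 105000 to 120000 against 55600 to 63500. Of 6 Paneth cell genes 4 and of 3 myeloid genes 2 were lower, with summed signals of 42100 to 47300 against 64900 to 78300 and 1990 to 3060 against 5810 to 7430. Bhlha15 was lower (-1.19 ± 0.26, adjusted p = 0.00829). Their part in the values of the replication genes was not tested. In irradiated CD24lo cells 0 of the 7 T cell genes and 0 of the 8 enterocyte genes passed, with summed signals of 402 to 870 and 61800 to 69100. The B and plasma cell sum there was 732 to 1530 against 2220 to 4570 untreated, with 0 of 4 genes past the threshold. With so few arrays, a marker that did not pass may still have moved. The part of these markers, and of the stem cell genes given further below, was not tested there either.

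**Figure D3:**
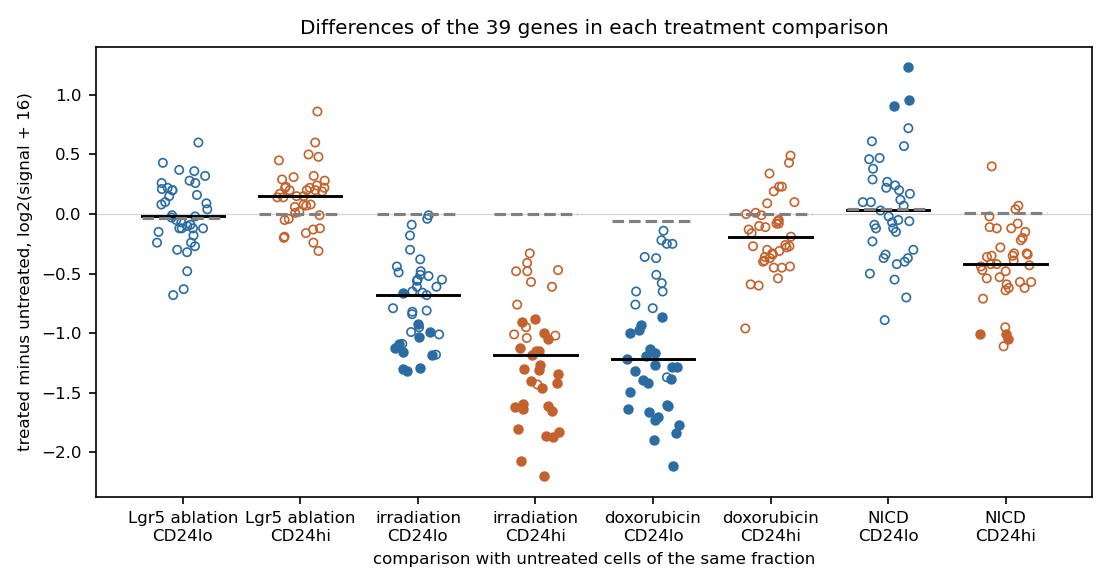
Difference from untreated cells of the same fraction (vertical axis, log2(signal + 16)) of each of the 39 genes in the 8 treatment comparisons. Filled points passed the threshold, open points did not, black lines are medians of the 39 genes and grey dashed lines medians of all genes tested. After irradiation in either fraction and after doxorubicin in CD24lo cells every point lies below 0, and the medians are -0.68, -1.18 and -1.22.

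In CD24hi cells after doxorubicin, 0 of the 39 genes passed by limma, where 1.20% of all genes passed in either direction. Of the 39, 3 had an unadjusted p below 0.05. The median was -0.19, and the differences ran from -0.96 for Lig1 to 0.49 for Orc1. Lig1 read 10.33 and 10.43 untreated and 9.40 and 9.45 treated (-0.96 ± 0.24, adjusted p = 0.0657), without overlap. Treated arrays lay below both untreated arrays for 21 genes (25.9% of all genes) and above for 4 (25.4% of all genes).

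Mcm2 read 10.22 and 10.02 in these cells (-0.45 ± 0.27), Mcm6 11.15 and 11.26 (-0.08 ± 0.25), and Cdc6 8.14 and 8.59 (-0.36 ± 0.36). Rrm2 read 11.20 and 11.29 (0.43 ± 0.24), and both arrays were above the untreated ones. Pcna read 12.76 and 12.61 (0.00 ± 0.21), Gmnn 9.94 and 10.03 (-0.13 ± 0.25), and Ccne1 8.86 and 8.99 (0.09 ± 0.41). Adjusted p for these 7 lay between 0.525 and 1.0, and the 95% intervals were -1.02 to 0.12 for Mcm2, -0.61 to 0.45 for Mcm6 and -0.45 to 0.45 for Pcna. In the same arrays 0 of 7 T cell genes and 3 of 8 enterocyte genes passed, with summed signals of 1730 to 1980 against 278 to 708 and 45900 to 47000 against 20200 to 23700 untreated. Clca1 (1.91 ± 0.18, adjusted p = 4.13e-05) and Zg16 (1.11 ± 0.21, adjusted p = 0.0136) were higher, 2 of 7 goblet genes, with a summed signal of 96100 to 110000 against 64500 to 83400. Their part was not tested.

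The effect of doxorubicin in CD24hi cells minus that in CD24lo cells was positive for all 39 genes, with a median of 0.95 against 0.06 over all genes. It passed for 0 of them by limma, where 0.0337% of all genes passed. At an unadjusted p below 0.05 there were 23, a looser rule for which no share of all genes is given. The highest value was that of Mcm5, 1.80 ± 0.46 (adjusted p = 0.171), and the smallest adjusted p that of Rrm2, 1.70 ± 0.34 (adjusted p = 0.0783). Without untreated CD24lo replicate 1 the count was 1, and with the mean of probe sets it was also 1.

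Doxorubicin and irradiation were also set against each other, each treatment's arrays being compared directly. In CD24hi cells 22 of 39 genes were higher after doxorubicin than after irradiation and 0 lower, where 3.71% of all genes tested were higher, with a median of 1.01. All 39 differences were positive, and arrays did not overlap for 36 genes (29.1% of all genes). Helicase loading genes led with 9 of 11. Mcm10 had the largest difference, with 10.87 and 10.76 after doxorubicin and 8.31 and 9.35 after irradiation (1.99 ± 0.32, adjusted p = 0.00119). It was followed by Pole with 8.85 and 9.19 after doxorubicin (1.82 ± 0.32, adjusted p = 0.0026) and Mcm6 (1.79 ± 0.25, adjusted p = 0.000417).

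Pola1 read 8.68 and 9.17 after doxorubicin (1.69 ± 0.37, adjusted p = 0.012), Prim1 10.36 and 10.43 (1.61 ± 0.29, adjusted p = 0.0031), and Ccne1 was higher by 1.53 ± 0.41 (adjusted p = 0.0433). Mcm5 read 11.11 and 11.07 (1.51 ± 0.33, adjusted p = 0.0113), and Mcm3, another ring subunit, 11.06 and 11.18 against 9.62 and 9.88 (1.37 ± 0.26, adjusted p = 0.00472). Rrm2 (1.31 ± 0.24, adjusted p = 0.00364), Gmnn (1.13 ± 0.25, adjusted p = 0.0141) and Mcm2 (0.97 ± 0.27, adjusted p = 0.0495) passed as well. Cdc6 (0.94 ± 0.36, adjusted p = 0.163) and Pcna (0.61 ± 0.21, adjusted p = 0.127) did not. The count of 22 was 2 without irradiated replicate 1, 20 without irradiated replicate 2, and 7 and 3 without doxorubicin replicate 1 and 2, with medians from 0.83 to 1.21. Mcm6 and Mcm10 kept their calls throughout.

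In CD24lo cells the same contrast gave 1 lower gene of 39, Cdc6, with 6.65 and 6.27 after doxorubicin and 8.27 and 7.88 after irradiation (-1.62 ± 0.36, adjusted p = 0.0241), where 1.95% of all genes were lower. Dut (-1.22 ± 0.39, adjusted p = 0.0874), Tyms (-1.12 ± 0.33, adjusted p = 0.072) and Rrm2 (-0.89 ± 0.24, adjusted p = 0.051) came next and did not pass. The median was -0.34. The call of Cdc6 was lost without any 1 of the 4 arrays.

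**Figure D4:**
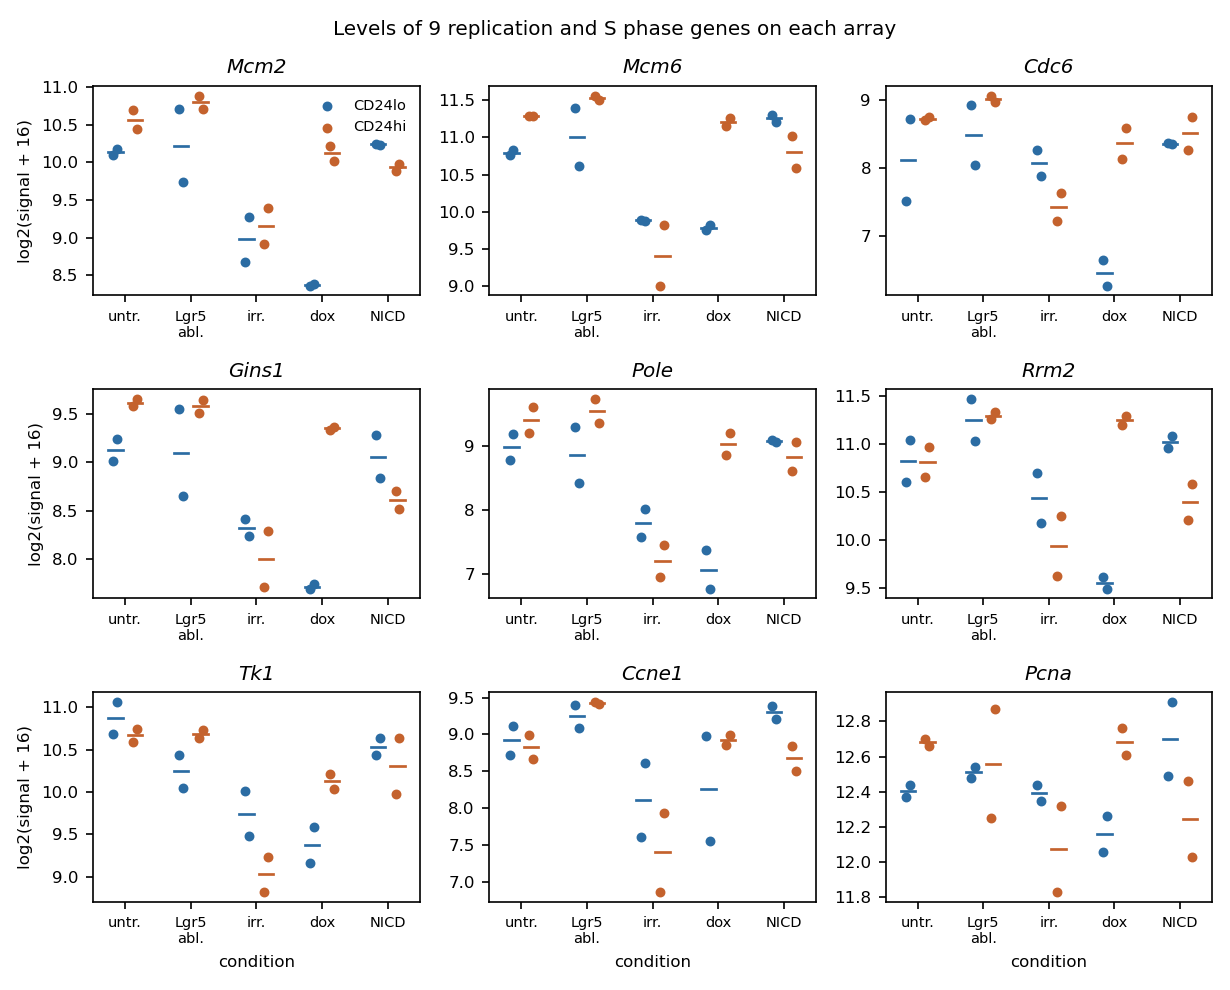
Levels of 9 of the genes (vertical axes, log2(signal + 16)) by condition in CD24lo (blue) and CD24hi (orange) cells, where points are arrays and bars the mean of 2. Each panel has its own scale. Mcm2, Mcm6, Gins1, Pole and Tk1 are low in both irradiated groups and in CD24lo cells after doxorubicin, Cdc6 is lowest in the latter at 6.65 and 6.27, and Pcna stays between 11.83 and 12.91 on all arrays.

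Lgr5 ablation gave 0 calls among the 39 genes in either fraction by limma. In CD24lo cells, where 0.236% of all genes passed, the median was -0.02, and 3 members had an unadjusted p below 0.05. In CD24hi cells, where 0.852% of all genes passed, the median was 0.15, and 1 member had such an unadjusted p. Mcm3 in CD24hi cells read 11.01 and 10.78 untreated and 11.96 and 11.55 after ablation (0.86 ± 0.26, adjusted p = 0.184), and Mcm4 in CD24lo cells 10.88 and 10.74 against 11.79 and 11.03 (0.60 ± 0.26, adjusted p = 0.61). In CD24hi cells the ablated arrays lay above the untreated ones for 16 genes (18.2% of all genes). Pold1 (-0.68 ± 0.24, adjusted p = 0.488) was lowest in CD24lo cells. Ablation gave 0 calls for the difference between fractions too, where 0.0169% of all genes passed, and 0 members had an unadjusted p below 0.05.

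The genes fixed for every treatment read as follows after ablation. In CD24lo cells Mcm2 read 10.71 and 9.74, Mcm6 11.39 and 10.61, Cdc6 8.93 and 8.04, and Pcna 12.48 and 12.54. Rrm2 read 11.47 and 11.03, Gmnn 10.07 and 10.35, and Ccne1 9.40 and 9.09. Replicate 1 was the higher in 5 of these 7. In CD24hi cells Mcm2 read 10.89 and 10.71, Mcm6 11.56 and 11.50, Cdc6 9.07 and 8.97, Pcna 12.25 and 12.87, Rrm2 11.26 and 11.33, Gmnn 9.70 and 10.50, and Ccne1 9.44 and 9.41. For Mcm2, Mcm6, Cdc6, Rrm2 and Ccne1 both of these arrays were above the untreated ones, and none of the 7 passed in either fraction.

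With NICD few genes of the list passed in either fraction. In CD24lo cells 3 of 39 genes were higher and 0 lower, where 6.70% of all genes tested were higher, and the median was 0.03. Ccne2, the second cyclin E gene, read 8.68 and 9.10 untreated and 9.93 and 10.32 with NICD (1.23 ± 0.32, adjusted p = 0.0229). Mcm4, a ring subunit, read 11.79 and 11.75 with NICD (0.96 ± 0.26, adjusted p = 0.0255), and Mcm3 read 10.52 and 11.08 against 11.52 and 11.89 (0.91 ± 0.26, adjusted p = 0.0326). None of the 3 overlapped with untreated arrays. The other 4 probe sets of Mcm3 gave -0.59 to -0.26, none past the threshold, and the mean of its probe sets gave -0.17 (adjusted p = 0.714), so the direction for Mcm3 depends on the probe set. The count was 0, 2, 2 and 0 without untreated replicate 1 and 2 and NICD replicate 1 and 2.

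In CD24hi cells with NICD, 3 of 39 genes were lower and 0 higher, where 1.86% of all genes were lower, with a median of -0.42. Rfc4 read 10.53 and 10.33 untreated and 9.64 and 9.11 with NICD (-1.05 ± 0.25, adjusted p = 0.0185). Gins1, a subunit of the Gins complex, read 9.58 and 9.66 against 8.70 and 8.52 (-1.01 ± 0.27, adjusted p = 0.0322). Slbp, which binds the stem-loop of histone mRNAs, read 12.01 and 11.80 against 11.25 and 10.55 (-1.01 ± 0.22, adjusted p = 0.00992). The NICD arrays lay below both untreated arrays for 25 genes (23.1% of all genes). Without NICD replicate 2, the array that stood apart, 0 genes passed and the values were -0.79 for Rfc4, -0.92 for Gins1 and -0.65 for Slbp (adjusted p = 0.251, 0.23 and 0.176). Without NICD replicate 1 the count was 7, and without untreated replicate 1 or 2 it was 0 or 1.

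The genes fixed for every treatment did not pass with NICD. In CD24lo cells Mcm2 read 10.25 and 10.23, Mcm6 11.30 and 11.21, Cdc6 8.37 and 8.35, Pcna 12.49 and 12.91, Rrm2 10.96 and 11.08, Gmnn 10.05 and 9.87, and Ccne1 9.39 and 9.21. For Mcm2, Mcm6, Pcna and Ccne1 both arrays exceeded the untreated ones. In CD24hi cells Mcm2 read 9.89 and 9.98, Mcm6 11.02 and 10.59, Cdc6 8.27 and 8.76, Pcna 12.46 and 12.03, Rrm2 10.21 and 10.58, Gmnn 9.86 and 9.30, and Ccne1 8.84 and 8.51. Here Mcm2, Mcm6, Pcna, Rrm2 and Gmnn were below both untreated arrays.

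The difference between the effects of NICD in both fractions passed for 3 of 39 genes, all lower in CD24hi cells, where 1.01% of all genes did so. These were Mcm4 (-1.58 ± 0.37, adjusted p = 0.039), Prim2, the large primase subunit (-1.56 ± 0.41, adjusted p = 0.05), and Slbp (-1.27 ± 0.30, adjusted p = 0.0424). Mcm4 read 11.55 and 11.27 in untreated and 11.23 and 10.35 in NICD CD24hi cells. Prim2 read 9.55 and 9.65 in untreated and 10.01 and 10.40 in NICD CD24lo cells, and 10.44 and 10.04 against 9.51 and 9.07 in CD24hi cells. Without NICD CD24hi replicate 2 the values were -1.15, -1.34 and -0.92 (adjusted p = 0.211, 0.263 and 0.234), and the count was 0. It was also 0 without CD24lo NICD replicate 2 or any 1 untreated array, 3 without CD24lo NICD replicate 1, and 8 without CD24hi NICD replicate 1.

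The NICD arrays differed in other cell type genes as well. In CD24hi cells all 5 tuft cell genes and all 7 enteroendocrine genes were higher, with summed signals of 9530 to 11500 against 1170 to 1720 and 53600 to 79500 against 11100 to 11800. In CD24lo cells 3 of 7 T cell genes were higher, among them Ptprc, the leukocyte antigen CD45 (4.41 ± 0.70, adjusted p = 0.0047), with a summed signal of 4450 to 5810 against 337 to 952, while 4 of 8 enterocyte and 3 of 7 goblet genes were lower, with sums of 32700 to 35500 against 55600 to 63500 and 83300 to 89400 against 113000 to 146000. Their part in the values of the replication genes was not tested.

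The direction of the difference between the fractions in the list's mean was not the same in all conditions, which was not tested. The mean over the 39 genes, averaged over both arrays, was higher in CD24hi than in CD24lo cells in untreated mice (10.02 against 9.775), after ablation (10.16 against 9.775) and, with the largest gap, after doxorubicin (9.845 against 8.65). It was lower in CD24hi cells after irradiation (8.815 against 9.035) and with NICD (9.60 against 9.835). After irradiation the gap came from 1 array, with 8.57 and 9.06 in CD24hi against 9.06 and 9.01 in CD24lo cells. With NICD both CD24hi arrays, among them the one whose control probe sets stood apart, were at 9.60, against 9.87 and 9.80. In untreated mice 0 of 39 genes passed by limma, where 14.4% of all genes passed in either direction, and 2 of the 39 had an unadjusted p below 0.05. The median was 0.25 against 0.05 over all genes, and Dut had the largest value at 0.77 ± 0.39 (adjusted p = 0.214). Averaged over the 5 conditions, 17 genes were higher and 0 lower, where 27.4% of all genes tested were higher. The median was 0.30 against 0.07, and no value exceeded 0.62.

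Pold1 (0.62 ± 0.11, adjusted p = 0.000166) and Dut (0.62 ± 0.17, adjusted p = 0.00744) had the largest average differences, followed by Mcm7 (0.60 ± 0.15, adjusted p = 0.003), Mcm2 (0.52 ± 0.12, adjusted p = 0.00179) and Cdc6 (0.51 ± 0.16, adjusted p = 0.0156). Mcm5 (0.46), Pole (0.44) and Rrm1 (0.40) came next. Their arrays overlapped between the fractions when all conditions were pooled. Pold1 read 9.67 and 9.48 in untreated CD24hi and 8.97 and 9.52 in untreated CD24lo cells, and after doxorubicin 9.05 and 8.90 in CD24hi and 7.60 and 7.67 in CD24lo cells. Pcna (0.02 ± 0.10) and Gmnn (-0.13 ± 0.11) were among the 22 that did not pass. This average therefore mixes conditions in which the list's mean was higher in CD24hi cells with irradiation and NICD, where it was lower. That reversal was not tested.

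Among the 39 genes, 6 passed in none of the 8 treatment comparisons. These were Pcna, Gins3, Rfc2, Ccne1, E2f1 and Orc1. Another 10 passed in 1, 11 in 2, 11 in 3, and Rfc4 in 4, lower in each. The genes lower in irradiated CD24hi cells and those lower in CD24lo cells after doxorubicin had 21 members in common, 80.8% of either 26. These comparisons share no arrays. As 26 of the 39 genes fell in each, most of either 26 would be shared by random draws too, and the overlap was not tested. Tyms, Cdc45, Pola2, Fen1 and Dut passed in the doxorubicin comparison alone, and Mcm10, Gmnn, Prim2, Rfc5 and Uhrf1 in the irradiation comparison alone. Their difference between the comparisons was not tested. Cdc45, which switches the helicase on, differed by -1.38 ± 0.32 in CD24lo cells after doxorubicin (adjusted p = 0.0102) and by -0.95 ± 0.32 in irradiated CD24hi cells (adjusted p = 0.124).

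More than 1 probe set was kept for 26 of the 39 genes, and the probe set used for 8 is of a kind that may also detect related transcripts. In irradiated CD24hi cells the other probe sets of genes that fell had the same sign in 25 of 25 cases, and 21 passed. After doxorubicin in CD24lo cells the numbers were 25 of 25 and 20, and in irradiated CD24lo cells 8 of 8 and 3. The promoters printed above can be set beside these calls. Mcm5 and Mcm6 fell in all 3 comparisons, Rfc3 fell in irradiated CD24hi cells and in CD24lo cells after doxorubicin, and Gins3, whose promoter also holds a motif, fell in none. Of the 17 genes with a promoter window that fell in both of the latter, 10 held an E2F-type motif (58.8%), and of the 6 with a window that fell in neither, 2 did (33.3%). The CCAAT box lay in 64.7% of the former and 66.7% of the latter genes. These shares rest on few genes, split by a threshold although all 39 differences were negative in both comparisons. Whether a motif goes with the fall was not tested.

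Replication genes outside the list went the same way. Of 51 such genes 49 were tested, and 20 fell in irradiated CD24hi cells, 8 in irradiated CD24lo cells and 24 in CD24lo cells after doxorubicin, with 0 higher in each. Medians were -0.88, -0.55 and -0.85. Asf1b, a histone chaperone, fell by 1.99 ± 0.20, 1.44 ± 0.20 and 1.67 ± 0.20 on the log2 scale in these comparisons (adjusted p = 2.77e-05, 0.000846 and 0.000185). Clspn, which relays replication stress, fell by 1.98 ± 0.32 in irradiated CD24hi cells and by 1.81 ± 0.32 in CD24lo cells after doxorubicin (adjusted p = 0.00131 and 0.0027). In CD24hi cells after doxorubicin 0 of 49 passed, with a median of -0.13. With NICD 7 fell in CD24hi cells, led by the single-strand binding protein gene Rpa2 (-1.36 ± 0.33, adjusted p = 0.0196).

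Genes of mitosis, which comes later in the cell cycle, were set beside the list. Of 19 tested 17 fell in irradiated CD24hi cells, 15 in irradiated CD24lo cells and 13 in CD24lo cells after doxorubicin, with medians of -1.57, -1.23 and -1.05. In CD24lo cells the median of the mitosis genes was thus further below 0 than that of the 39 replication genes after irradiation (-0.68), and less far after doxorubicin (-1.22). That difference between lists was not tested. Mki67, a marker of dividing cells, read 11.57 and 11.78 in untreated, 9.06 and 10.17 in irradiated and 12.01 and 11.95 in doxorubicin CD24hi cells. It fell in irradiated CD24hi cells (-2.06 ± 0.31, adjusted p = 0.000761) and differed by 0.30 ± 0.31 after doxorubicin (adjusted p = 0.777). In the latter cells 0 of 19 mitosis genes passed, with a median of 0.27.

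**Figure D5:**
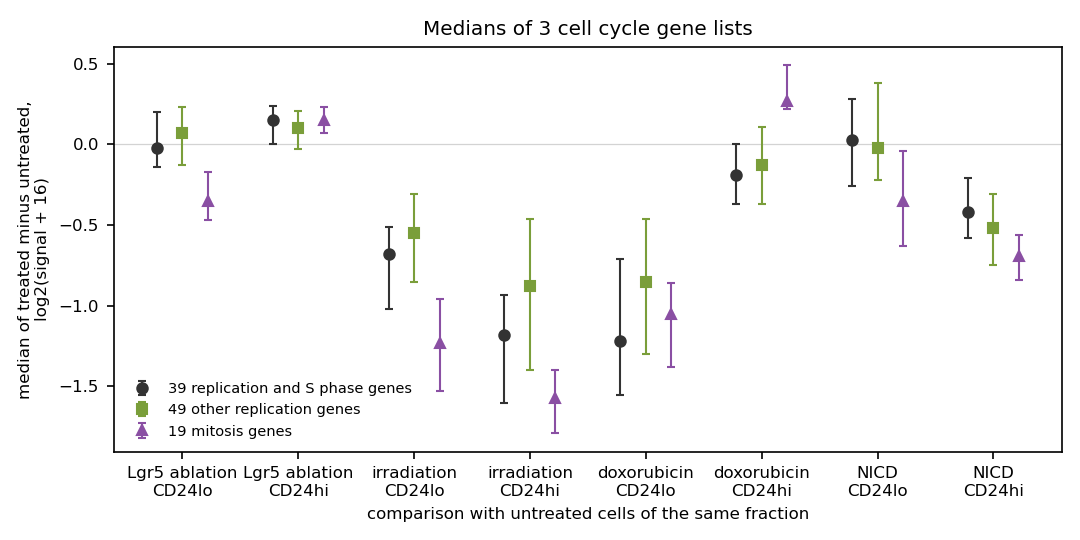
Median difference from untreated cells (vertical axis, log2(signal + 16)) of the 39 replication and S phase genes, 49 other replication genes and 19 mitosis genes in the 8 treatment comparisons. Bars span the lower to the upper quartile over the genes of a list and are not errors. All 3 medians lie below -0.50 in irradiated cells of both fractions and in CD24lo cells after doxorubicin, and between -0.19 and 0.27 in CD24hi cells after doxorubicin.

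Genes that hold the cell cycle back were mostly without a call. Of 13 tested 3 rose and 1 fell in irradiated CD24hi cells, 2 rose in irradiated CD24lo cells, 2 in CD24lo cells and 1 in CD24hi cells after doxorubicin. Of all 11854 genes tested 187 rose in irradiated CD24lo cells and 648 in CD24lo cells after doxorubicin. In CD24hi cells after doxorubicin 1.20% passed in either direction, and no share that rose is given for irradiated CD24hi cells. Cdkn1a, which encodes the kinase inhibitor p21, a target of p53, rose by 2.09 ± 0.29 in irradiated CD24hi and by 1.43 ± 0.29 in irradiated CD24lo cells (adjusted p = 0.000373 and 0.00963). After doxorubicin it differed by 0.24 ± 0.29 in CD24lo and by 1.07 ± 0.29 in CD24hi cells and passed in neither (adjusted p = 0.602 and 0.0895). Ccng1, another p53 target, rose in all 4, by 1.25, 1.61, 1.14 and 1.21 in irradiated CD24hi, irradiated CD24lo, doxorubicin CD24lo and doxorubicin CD24hi cells. Stem cell genes fell in 4 of 10 cases in irradiated CD24hi, 5 in irradiated CD24lo and 7 in doxorubicin CD24lo cells, and in 1 case in doxorubicin CD24hi cells. Olfm4, a gene of crypt base stem cells, led with -3.20 ± 0.31, -3.71 ± 0.31 and -3.18 ± 0.31 in the first 3. The part of these lists in the values of the replication genes was not tested.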

How the data were processed

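Biotinylated cDNA was made from 0.8 ng of total RNA with a GeneChip Pico kit, per the labels' protocols. The deposited values are MAS5 signal intensity per probe set, linear, per the submitters' processing notes, which give no version. The intensity deposited by the authors covers 45101 probe sets on 21 arrays, with no detection calls. Arrays do not give counts, and their number limits the precision. The members and lists were chosen with earlier results of these data known.

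Signals were taken as log2(signal + 16) without further scaling. Probe sets of 1 gene symbol above the array median on at least 2 of 20 sorted arrays were kept, and each gene was read through the one with the highest mean. Limma 3.58.1 in R 4.3.3 modelled the 10 group means together, with 10 residual degrees of freedom and a trended variance. Its two-sided p-values were adjusted by Benjamini-Hochberg over all 11854 genes, separately in 16 comparisons, with a threshold of 0.05. Shares of all genes that passed are at this adjusted threshold, and none is given for counts at an unadjusted p below 0.05. Differences are ± SE with n = 2 arrays a group, and intervals are 95%. In each comparison up to 8 members with the largest change were named with all arrays, Pcna, Mcm2, Mcm6, Cdc6, Ccne1, Rrm2 and Gmnn whatever their result, and up to 4 genes of each other list. Promoters come from the RefSeq table of GRCm38.p6. Tried as alternatives were pseudocounts of 1 and 64, 75th percentile centring, quantile normalization, dropping the filter, averaging probe sets, the replicate number as a block, and leaving out each array, in which case the remaining array of that group borrows its spread from the rest. The procedure was tested on simulated data. Whole intestine, from 1 array, was kept out of every test.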

Additional observations from a re-analysis of the deposited data

Results flagged for a closer look

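The effect of NICD differed between the fractions for 3 of the 39 genes by a test of the difference itself, and all 3 were more negative in CD24hi cells. Mcm4, a subunit of the Mcm ring, differed by -1.58 ± 0.37 (adjusted p = 0.039), from a difference of 0.96 in CD24lo and -0.62 in CD24hi cells. Prim2, the large primase subunit, differed by -1.56 ± 0.41 (adjusted p = 0.05), from 0.61 and -0.95. Slbp, the histone stem-loop binding protein gene, differed by -1.27 ± 0.30 (adjusted p = 0.0424), and read 11.64 and 11.37 in untreated against 11.66 and 11.89 in NICD CD24lo cells. All 3 calls were lost without CD24hi NICD replicate 2, whose control probe sets stood apart. On that array each gene read lower than on replicate 1. The calls were lost as well without CD24lo NICD replicate 2, without any single untreated array, or with the filter dropped. The direction was the same in the other kept probe sets of these genes, 4 of 4, none of which passed. The cause was not tested.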

How the results depend on the processing

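Counts of the 39 genes past the threshold stayed within 1.5 times their value under the settings that kept all arrays, with these exceptions. The mean of probe sets gave 1 for NICD in CD24lo cells, 1 for the doxorubicin difference between fractions, 1 for the NICD difference between fractions and 2 for doxorubicin against irradiation in CD24lo cells. Quantile normalization gave 1 for doxorubicin in CD24hi cells and 2 for doxorubicin against irradiation in CD24lo cells, a pseudocount of 64 gave 2 for the latter, and no filter gave 0 for the NICD difference between fractions. The mean of probe sets turned Mcm3 with NICD in CD24lo cells to -0.17 (adjusted p = 0.714). The cause was not tested. Of 784 values of single genes under these settings 731 kept direction and call, 52 lost the call and 1 reversed. Leaving out 1 array, 477 of 732 kept the call, 255 lost it and 0 reversed. The counts then ran from 0 to 7 for irradiation in CD24lo cells, 7 to 28 for irradiation in CD24hi cells, 10 to 26 for doxorubicin in CD24lo cells, 2 to 20 for doxorubicin against irradiation in CD24hi cells and 13 to 22 for the average between fractions. They ran from 0 to 2 for NICD in CD24lo cells, 0 to 7 for NICD in CD24hi cells, 0 to 8 for the NICD difference, 0 to 1 for the doxorubicin difference and for the untreated fractions, and 0 to 0 for doxorubicin against irradiation in CD24lo cells and the others. Differences between replicates correlated from -0.41 to 0.38 over 45 pairs of groups, above 0.1 in 11. Most of these pairs join different conditions, and the pairs of both fractions of the same condition were not read apart. This range therefore cannot tell whether both fractions of a condition were paired by replicate number. Such pairing was not modelled, and the block below is a single term over all conditions. With the replicate number as a block the counts were 8, 24 and 26 for irradiation in CD24lo, irradiation in CD24hi and doxorubicin in CD24lo cells, 16 for the average between fractions, 19 for doxorubicin against irradiation in CD24hi cells, 3 and 3 for NICD and 2 for its difference. With 2 arrays a group, small differences could not be resolved, and signal over background is unknown without detection calls.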

Other observations

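Whole intestine, measured on 1 array and labelled as villi by cell type, had a mean of 7.96 over the 39 genes, against 9.59 to 10.04 on the 4 untreated sorted arrays. Of the 39 genes 38 were below all 4 untreated arrays, 0 were above them, and 1, Rfc2 at 9.78, lay between them. Pcna read 12.12, Gmnn 9.90, Cdc6 5.66 and Pole 5.34 on that array. These are single values without a replicate.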
